A study of Homo sapiens with 3 samples.

Results

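The annexins are a family of calcium-dependent, phospholipid-binding proteins, and 10 of their genes (Anxa1 to Anxa8, Anxa10 and Anxa11) are described here in AB12 cells with and without knockdown of Nf2. The members were taken by gene symbol from the deposited table, and 10 of its 13936 genes matched. The family itself was chosen by a measured value, the low level of Anxa10 in shNF2 against shSC. Anxa9 and Anxa13, which are not members, were also listed and are given beside them. AB12 is a cell line from a mouse mesothelioma, the tumour of mesothelial linings. Nf2 is the gene of merlin, a tumour suppressor at the cell cortex that acts above the Hippo pathway. The series held 2 libraries labelled shNF2, numbered 20 and 21, and 1 library labelled shSC, read here as the control hairpin and marked WT in its column name. All 3 came from AB12 cells grown in RPMI with serum, and their labels name a hairpin. The labels give neither the meaning of 20 and 21, nor whether the lines were pools or clones, nor whether the libraries were separate cultures. The samples are labelled human, but AB12 is a mouse line and the table carries mouse Ensembl identifiers.

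An annexin consists of a conserved core that binds acidic phospholipids, above all phosphatidylserine, when calcium rises, and of a variable N-terminal tail that binds partners such as S100 proteins. Through these contacts annexins link membranes to actin, to endosomes and to one another, seal torn plasma membrane, and, on the cell surface, take part in plasminogen activation and in the resolution of inflammation. Annexin A10 is an atypical member, known in human tissue as a gastric epithelial gene, and its human core has lost most of the usual calcium-binding sites.

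Reads assigned to genes numbered 25837151 and 26829163 in shNF2 libraries 20 and 21 and 29532600 in shSC, and values are scaled counts as deposited. Nf2 had 486 and 458 scaled counts in the shNF2 libraries, against 1539 in shSC, which is -1.70 ± 0.24 on the log2 scale (SE, limma adjusted p = 0.00555). Quantile normalization (adjusted p = 0.496) and a fit with no variance trend (0.187) ended this call. Of 10 mesothelial markers 5 were listed, with sums of 39947 and 33759 scaled counts in shNF2 and 43900 in shSC and a median log2 difference of -0.36, while Wt1 and Upk3b were not listed. Both shNF2 libraries were above shSC for Msln and Krt7 and below it for Krt8, Krt18 and Krt19. Msln, which encodes mesothelin, had 9722 and 8977 in shNF2 and 7397 in shSC, and the keratin gene Krt18 had 20443 and 16561 in shNF2 and 23657 in shSC. Krt7 had 290 and 183 in shNF2 and 49.7 in shSC. Of the 5 mesothelial markers 1 passed a limma adjusted p of 0.05 as higher and 0 as lower, where 0.414% and 0.429% of all genes did. Of 14 macrophage markers 4 were listed, with sums of 8559 and 8070 in shNF2 and 9307 in shSC, carried by Mrc1 and Cd14, while Ptprc and Adgre1 were not listed. Lyz2 went against that sum, with 260 and 108 in shNF2 and 56.5 in shSC, and the list's median log2 difference was 0.05. Of 8 lymphocyte and 6 endothelial markers 0 were listed. Of 10 fibroblast and smooth muscle markers 4 were listed, with sums of 26.2 and 104 in shNF2 and 15.6 in shSC. Acta2 carried most of the library 21 sum, with 69.0 there, 1.05 in library 20 and 0.974 in shSC. Pdgfra had 11.5 and 14.6 in shNF2 and 9.74 in shSC. The part of all these markers in the annexin values was not tested.

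Anxa10 was the 1 member with a large difference. It had 98.3 scaled counts in shNF2 library 20 and 246 in shNF2 library 21, against 1756 in shSC. Both shNF2 libraries were far below shSC. The ratio to shSC was 0.0560 in library 20 (95% interval 0.0450 to 0.0689) and 0.140 in library 21 (0.122 to 0.160), which puts the level 17.9-fold and 7.14-fold lower. These intervals, like all those on ratios here, are exact binomial ones, cover counting error only, and treat reads as independent molecules, which PCR copies are not. The values rest on 94 and 253 reads in the shNF2 libraries and 1803 in shSC. On the log2(scaled count + 1) scale the differences were -4.14 and -2.83, with a mean of -3.49 ± 0.41 (SE). Counted from the lowest, this mean held rank 2 of 12813 genes tested. The choice of the family rested on this difference, so it is given as a description with no test. In bulk RNA, fewer cells that make a transcript and less of it per cell cannot be told apart.

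**Figure D1:**
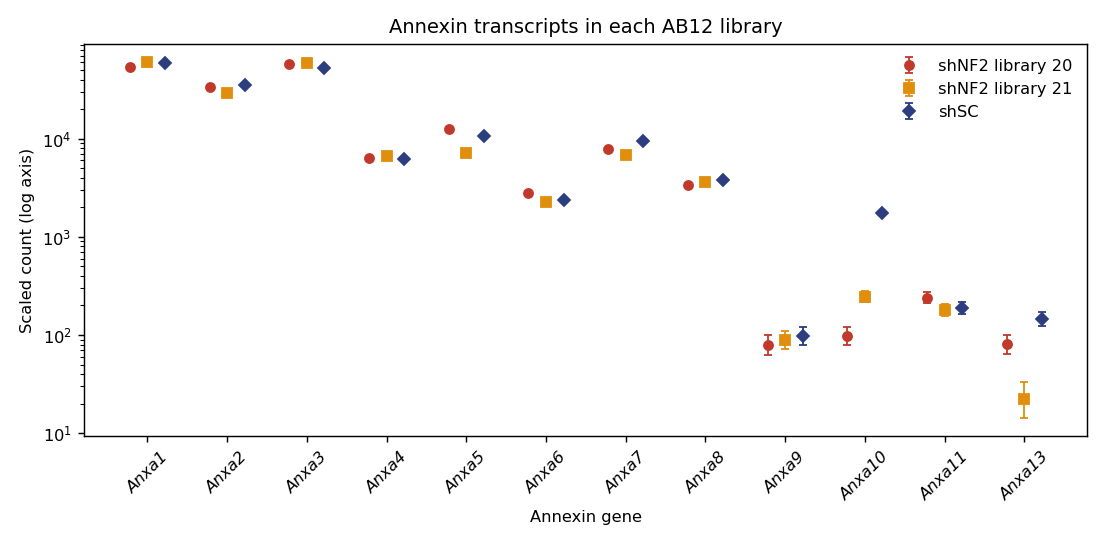
Scaled counts (log axis) of the 10 annexin members and of Anxa9 and Anxa13 in shNF2 library 20, shNF2 library 21 and shSC, with exact 95% Poisson intervals that are mostly narrower than the symbols. Anxa10 lies at 98.3 and 246 in shNF2 and at 1756 in shSC, whereas the 3 libraries lie close together for most of the other genes.

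The other 9 members had far smaller differences, a contrast with Anxa10 that was not itself tested. Their mean log2 differences ran from -0.36 to 0.15 with a median of -0.05, beside a median of -0.0043 over all genes tested. The absolute differences had a median of 0.15, against 0.23 for all genes tested. In 8 of the 9 the difference was smaller than its own standard error, the exception being Anxa7. In the whole family 1 member passed an adjusted p of 0.05 in the limma fit over all genes, and it was lower, where the background was 0.843% of genes in either direction and 0.429% lower. Nothing is read from that count, because the contrast was used to choose the family. Both shNF2 libraries lay below shSC for 4 of the 10 members (35.8% of all genes) and above it for 2 (36.1%), while the libraries straddled shSC for the other 4. Each shNF2 library was at least 2-fold below shSC for 1 member, Anxa10, and for 1.3% of all genes. By mean difference 6 members were lower and 4 higher, a split that turned to 4 lower and 6 higher under quantile normalization. It was 7 lower and 3 higher with library 20 left out, and 5 and 5 with library 21 left out. The subtraction of GC group medians described below also gave 7 lower and 3 higher. With 2 shNF2 libraries and 1 shSC library, the smallest p an exact permutation test of 1 gene could reach is 0.333.

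**Figure D2:**
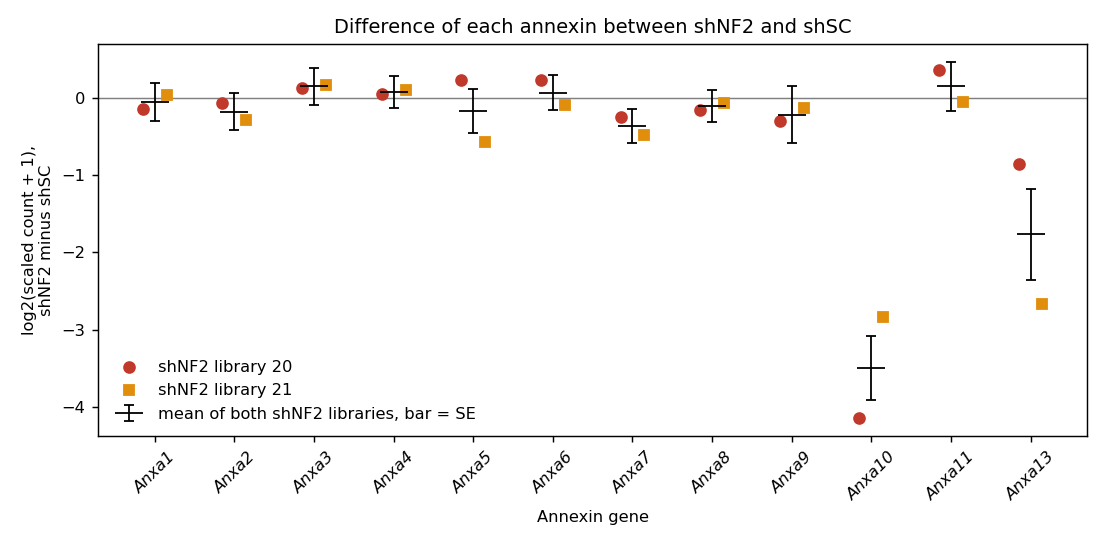
Difference in log2(scaled count + 1), shNF2 minus shSC, for each annexin gene. Circles are library 20, squares library 21, dashes their mean and bars the SE. Anxa10 stands at -4.14 and -2.83 and Anxa13 at -0.86 and -2.66, and the other genes lie between -0.57 and 0.35.

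Annexin A1, or lipocortin, restrains cytosolic phospholipase A2 and signals through formyl peptide receptors. Its gene had 53184 and 60223 scaled counts in shNF2 libraries 20 and 21 and 58742 in shSC. The shSC value lay between those of the shNF2 libraries, and the log2 difference was -0.05 ± 0.25 (SE). Annexin A2 pairs with S100A10 and gathers plasminogen and its activator at the cell surface. Anxa2 had 33839 and 29058 scaled counts in shNF2 and 35497 in shSC. Both shNF2 libraries were a little lower, by -0.18 ± 0.23 on the log2 scale.

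The members known for membrane aggregation and lattice formation had values on either side of shSC. Anxa3, a gene first studied in neutrophil granule aggregation, had 57264 and 59183 scaled counts in shNF2 and 52574 in shSC. Both shNF2 libraries were slightly higher (log2 difference 0.15 ± 0.24). Anxa4, whose protein sits at epithelial membranes and dampens a calcium-activated chloride current, had 6341 and 6593 in shNF2 and 6156 in shSC (0.07 ± 0.21). Anxa5 encodes the phosphatidylserine-binding anticoagulant whose lattice patches wounded membrane. It had 12524 scaled counts in shNF2 library 20 and 7202 in shNF2 library 21, against 10681 in shSC. The shNF2 libraries thus lay on opposite sides of shSC, with log2 differences of 0.23 and -0.57. Anxa8, an annexin of late endosomes that also slows coagulation, had 3409 and 3611 scaled counts in shNF2 and 3787 in shSC (-0.11 ± 0.21).

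Annexins A6, A7 and A11 act on endosomes, secretory granules and RNA granules. Anxa6, whose protein carries a pair of annexin cores and recruits a Ras GTPase-activating protein, had 2793 and 2241 scaled counts in shNF2 and 2387 in shSC. Its shNF2 libraries straddled shSC (log2 difference 0.07 ± 0.22). Anxa7 encodes synexin, which drives granule fusion and binds sorcin. It had 7908 and 6758 scaled counts in shNF2 and 9411 in shSC, so both shNF2 libraries were lower, at ratios of 0.840 (95% interval 0.815 to 0.866) and 0.718 (0.696 to 0.741). Its log2 difference of -0.36 ± 0.21 was the furthest from 0 among the 9 members, and 69.7% of genes tested had a smaller one. Anxa11, whose protein binds ALG-2 and tethers RNA granules to lysosomes, had 241 and 181 scaled counts in shNF2 and 188 in shSC (0.15 ± 0.32). Its 230 and 186 reads in shNF2 and 193 in shSC give it the least precise value of these 9.

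Summed over the 10 members, scaled counts were 177601 and 175297 in shNF2 and 181178 in shSC. That sum is 0.657% and 0.672% of all scaled counts in genes in shNF2 and 0.630% in shSC. Anxa10 made up 0.0554% and 0.140% of the annexin sum in shNF2 and 0.969% in shSC. Without it the sums were 177503 and 175051 in shNF2 and 179422 in shSC, so the summed scaled counts were close to equal in the 3 libraries. Anxa1, Anxa2 and Anxa3 had the largest values and make up most of this sum, so it says little of the other members.

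Anxa13 and Anxa9 are the annexin genes outside the members. Anxa13, a gene of intestinal epithelium whose protein is anchored by a fatty acid, had 80.5 scaled counts in shNF2 library 20 and 22.4 in shNF2 library 21, against 147 in shSC. Both shNF2 libraries were lower, at ratios of 0.548 (95% interval 0.411 to 0.726) and 0.152 (0.0935 to 0.237). The log2 differences were -0.86 and -2.66, with a mean of -1.76 ± 0.59 (SE), which ranked 65 from the lowest of 12813. It rests on 77 and 23 reads in shNF2 and 151 in shSC. Its lower library was number 21, whereas for Anxa10 it was number 20. Anxa9 had 79.5 and 89.4 scaled counts in shNF2 and 98.3 in shSC (-0.22 ± 0.37), and its ratio intervals included 1 in each library.

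**Figure D3:**
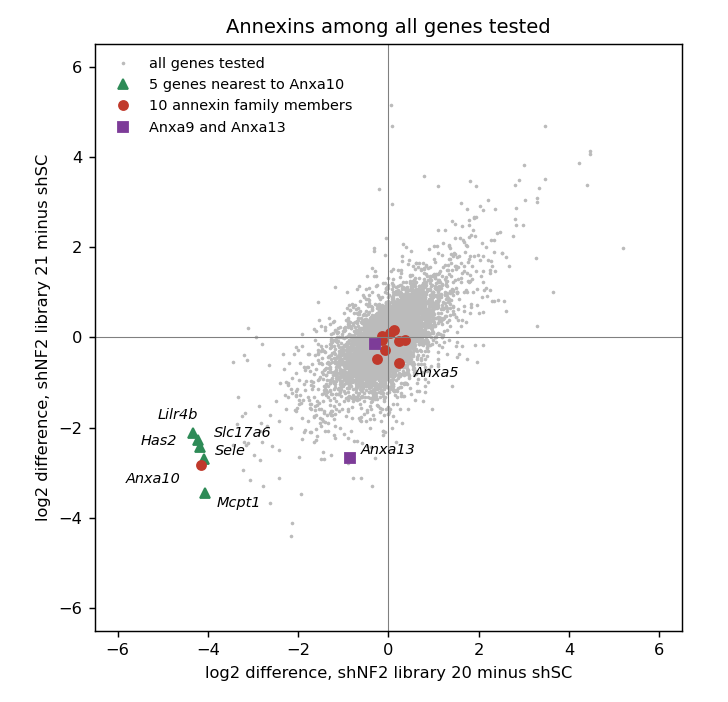
Log2 difference from shSC of every gene tested in shNF2 library 20 (x axis) and library 21 (y axis), with the 10 annexin members, Anxa9 and Anxa13, and the 5 genes nearest to Anxa10 marked. Both axes share the shSC library. Anxa10 lies at the lower left edge of the cloud, Anxa13 low on the y axis, and the other annexins near the origin.

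By the distance between the pairs of log2 differences in libraries 20 and 21, the 5 genes nearest to Anxa10 were Sele, Slc17a6, Has2, Mcpt1 and Lilr4b, at distances of 0.15, 0.39, 0.56, 0.62 and 0.74. This likeness covers 2 libraries set against the same shSC library, and it is a description with no test. Sele, which encodes E-selectin, had 12.6 and 34.99 scaled counts in shNF2 and 231 in shSC. Has2, a hyaluronan synthase gene, had 9.41 and 38.9 in shNF2 and 192 in shSC. That both were lower in shNF2, and lowest in library 20, follows from how they were picked. Mcpt1, a mast cell protease gene, had 10.5 and 16.5 scaled counts in shNF2 and 190 in shSC. Lilr4b, a leukocyte receptor gene, had 26.2 and 124 in shNF2 and 543 in shSC. Slc17a6, a vesicular glutamate transporter gene, had 1 and 6 reads in shNF2 and 37 in shSC, a ratio in library 20 of 0.0290 with a counting interval of 0.000716 to 0.172.

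Between libraries 21 and 20, the shNF2 pair, the 95% counting interval of the ratio left out 1 for 10 of 10 members and for 54.3% of all genes tested. With TMM scaling it left out 1 for 9 members, Anxa4 being the exception, and for 54.1% of all genes. These intervals are narrow where reads are many, as they are for most annexins. With 1 library of each number there is no test. Anxa10 had a ratio of library 21 to library 20 of 2.501 (95% interval 1.97 to 3.20), and 98.3% of genes tested differed less between these libraries. Anxa5 had a ratio of 0.575 (0.559 to 0.592), and 93.6% of genes differed less. The other 8 members had ratios between 0.751 for Anxa11 and 1.13 for Anxa1. At least a 2-fold difference between the pair was seen in 1 member, Anxa10, and in 3.83% of genes tested. Library 21 also differed from shSC in relation to GC content, judged by the human transcripts of the same symbols as stand-ins. In the GC group that holds Anxa5 and Anxa7, the median log2 difference from shSC was 0.12 in library 21 and 0.03 in library 20. With these medians subtracted, Anxa5 had -0.69 in library 21 and 0.20 in library 20, and Anxa7 had -0.60 and -0.28. Anxa3 and Anxa4 belong to the same group. After subtraction Anxa3 had 0.05 in library 21 and 0.09 in library 20. Anxa4 had -0.02 and 0.01, so its libraries then straddled shSC. Members of other groups changed side too. Anxa8 had 0.02 in library 21 and -0.19 in library 20, and so came to straddle shSC. Anxa1 had -0.14 and -0.17, below shSC in both, and Anxa11 had 0.04 and 0.32, above it in both. Anxa6 had 0 in library 21 and 0.19 in library 20. In the group of Anxa10 the medians were 0.18 in library 21 and 0.02 in library 20, and its values after subtraction were -3.01 and -4.17.

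**Figure D4:**
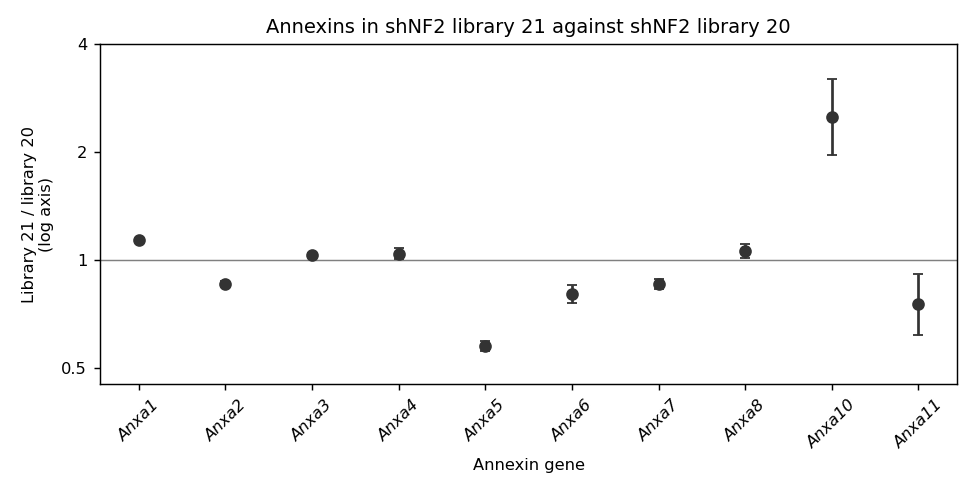
Ratio of scaled counts in shNF2 library 21 to those in shNF2 library 20 (log axis) for each annexin member, with exact 95% counting intervals. Anxa10 lies at 2.501 and Anxa5 at 0.575, and the other 8 members lie between 0.751 and 1.13.

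Genes that work with annexins were set beside them in lists chosen for known function. Of 82 such genes 61 were listed and 60 tested. Among the 60, 1 rose and 2 fell, where 0.414% and 0.429% of all genes did. The S100 proteins are small calcium sensors that dock on annexin tails. Of 11 S100 genes tested 1 rose and 1 fell, and both shNF2 libraries lay below shSC for 7 (35.8% of all genes) and above it for 2 (36.1%). The list's median log2 difference was -0.25 (-0.09 in library 20 and -0.48 in library 21), beside -0.0043 over all genes tested. S100a7a, the mouse counterpart of psoriasin, rose to 2210 and 2223 scaled counts in shNF2, against 758 in shSC (log2 fold change 1.55 ± 0.22, SE, limma adjusted p = 0.00555). S100a16, a widely expressed member, fell to 3639 and 3577 in shNF2, against 7773 in shSC (-1.11 ± 0.21, limma adjusted p = 0.0232). Neither call held under quantile normalization (adjusted p = 0.496 and 0.523) or with no variance trend (0.188 and 0.295).

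The direct S100 partners of annexins did not pass the test. S100a10, whose product forms the tetramer with annexin A2, had 51573 and 37227 scaled counts in shNF2 and 65183 in shSC. Both shNF2 libraries were lower, with a log2 difference of -0.57 ± 0.26 (limma adjusted p = 0.538), and Anxa2 itself had -0.18. S100a4, which also binds annexin A2, had 47309 and 33584 in shNF2 and 66796 in shSC (-0.74 ± 0.27, limma adjusted p = 0.344). S100a11, whose product binds annexin A1, had 19553 and 17381 in shNF2 and 20808 in shSC (-0.17, limma adjusted p = 0.854). S100a6, whose product binds annexins A2 and A11, had 82899 and 67947 in shNF2 and 81075 in shSC (-0.11, limma adjusted p = 0.935).

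Of 9 other ligands, receptors and partners tested 0 passed, with a median of 0.02. Rasa1, which encodes the GTPase-activating protein bound by annexin A6, had a log2 difference of -0.49. Pla2g4a, the phospholipase gene, had -0.33, and Pdcd6, which encodes ALG-2, had -0.32. Sri, the sorcin gene, had -0.22. Ahnak, a scaffold held by annexin A2 and S100A10, had 5032 and 6205 scaled counts in shNF2 and 5505 in shSC (0.02). No receptor of annexin A1 (Fpr1 or Fpr2) was listed.

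Among 15 plasma membrane repair genes tested 0 passed, and the median was 0.15. Ehd4, an endocytic ATPase gene, had 1607 and 1551 scaled counts in shNF2 and 919 in shSC (0.78 ± 0.22, limma adjusted p = 0.166). Dysf, the dysferlin gene, had a log2 difference of 0.64 ± 0.41 (SE), on 100 and 72 reads in shNF2 and 56 in shSC. Of 7 plasminogen activation genes tested 1 fell, and the median was -0.24 (0.02 in library 20 and -0.53 in library 21). Serpinb2, which encodes an inhibitor of urokinase, fell to 1344 and 1451 scaled counts in shNF2, against 2826 in shSC (log2 fold change -1.02 ± 0.21, limma adjusted p = 0.0479). Its call was lost with edgeR (adjusted p = 0.0505), robust moderation (0.0538), TMM scaling (0.0665), no variance trend (0.350) and quantile normalization (0.523).

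Of 13 genes for phosphatidylserine exposure and binding tested 0 passed, with a median of 0.03. The scramblase genes Plscr3 and Ano6 had log2 differences of -0.59 and -0.29. Plscr3 had -0.57 in library 20 and -0.60 in library 21, whereas Ano6 had -0.52 and -0.06. Copines and extended synaptotagmins bind phospholipid through C2 domains in place of an annexin core. Of 7 tested 0 passed, with a median of 0.19, and Cpne3 and Cpne2 had log2 differences of 0.42 and 0.37. Cpne3 had 0.17 in library 20 and 0.68 in library 21. Cpne1 had only 5 and 11 reads in shNF2 and 15 in shSC, and its log2 difference of -0.87 became -0.47 with a pseudocount of 10.

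**Figure D5:**
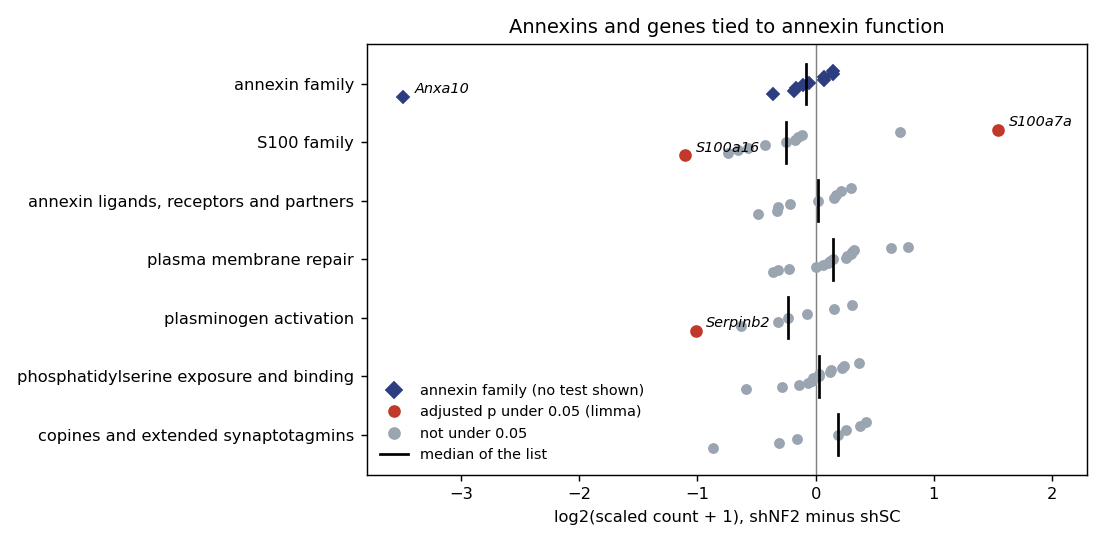
Difference in log2(scaled count + 1), shNF2 minus shSC, for the 10 annexin members (diamonds, no test shown) and for genes of 6 lists tied to annexin function (circles), with the median of each list as a bar. Red circles mark S100a7a, S100a16 and Serpinb2, which passed a limma adjusted p of 0.05, and Anxa10 lies apart from every other gene shown.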

How the data were processed

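The authors deposited 1 table of gene signal, called scaled counts in its name. DESeq 1.22.1, HTSeq 0.5.3, STAR 2.5.0a and cutadapt 1.6 are the tools, and mm10 the mouse build, that the submitters' processing notes list, without saying what each did. Per the values of the deposited signal, a library's values are whole reads over a single factor (0.956, 1.03 and 1.03 for libraries 20 and 21 and shSC), and 100% of values came out whole within 0.001 reads. Genes with low counts had been removed by a filter not given in the sources used here (smallest total 15 reads). Rows that name no gene held 48.7%, 47.7% and 48.6% of the summed signal and were left out. Whether counting used the strand is likewise not given.

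For shNF2 against shSC, limma 3.58.1 (R 4.3.3) with a variance trend was fitted to log2(scaled count + 1). Genes needed a mean scaled count of 10, which left 12813, and p-values were adjusted over all of them (Benjamini-Hochberg, threshold 0.05). This scale understates changes of low genes. Its spread comes from the shNF2 pair (1 residual degree of freedom, moderated across genes) and is assumed to hold for the lone shSC library, so a p-value reflects how far the shNF2 pair differ, which may be technical variation only. Alternatives were edgeR 4.0.16 and DESeq2 1.42.0 on the recovered reads, pseudocounts of 0.5 and 10, no filter or a mean of 50 or more, TMM and quantile scaling, no trend, robust moderation and each shNF2 library left out. Subtraction of medians in 8 GC groups, and the same genes without it, were added after the data had been seen, and human GENCODE v29 transcripts stood in for 80.5% of genes tested and for all 12 annexins. Scripts were tested on simulated data.

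Members and lists were chosen with earlier results of these data known. Genes named were Nf2, all annexins listed, the direct annexin partners, genes of each list that passed the test (otherwise up to 3 with the smallest p), and the 5 genes nearest to Anxa10. A gene that this rule names is not reported here. The marker genes were chosen from the marker lists. No gene coordinates or sequences are given, since mouse sequence was not used here.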

Additional observations from a re-analysis of the deposited data

How the results depend on the processing

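Across 12 alternatives that kept both shNF2 libraries, the log2 difference of Anxa10 ran from -3.59 to -3.35. Its call follows from the choice of the family and supports nothing, and it was absent (0 members called lower) with quantile normalization, no variance trend, robust moderation and DESeq2. The other 9 members ran from -0.44 to 0.38 over these alternatives, with 0 calls. Their median of -0.05 became 0.046 under quantile normalization, and 0.043 and -0.069 with library 21 or library 20 left out. Leaving out a library leaves no residual degree of freedom, so no calls were made. Anxa10 was -4.14 without library 21 and -2.83 without library 20. The count of 2 lower calls among partner genes became 1 with TMM scaling, robust moderation and edgeR. It became 0 under quantile normalization and without a variance trend, where the count of 1 higher call became 0 too. Over all genes, 53 higher and 55 lower calls became 110 and 122 without the filter on low values and 0 and 0 under quantile normalization (where 882 genes had an unadjusted p below 0.05) and with no trend (1036). edgeR called 29 higher. The 10318 genes with a GC stand-in gave 45 higher and 54 lower as they stood, and 69 and 98 once GC group medians were subtracted. The cause of these changes was not tested. Depth limits Anxa9, Anxa11 and Anxa13, which rest on 23 to 230 reads a library, and Cpne1. It also limits Dysf, the shNF2 values of the genes nearest to Anxa10, and Anxa10 itself in library 20 (94 reads). No paired analysis was possible because the series held only 1 shSC library.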
